A study of Gallus gallus with 9 samples.

Results

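A set of 137 protein-coding genes of chicken liver had lower RNA levels at 5 weeks than at embryonic day 13, and lower levels again at 42 weeks than at 5 weeks. They were chosen by their measured values, among 11512 genes with at least 1 FPKM (sequenced fragments relative to transcript length and to all those mapped in the library) in at least 3 libraries, as those whose mean log2(FPKM + 1) was lower by at least 1 at each step. The members were 1.19% of the genes tested and came from a table of 13949 listed genes. The label of genes falling at both steps describes how they were chosen, so the size and direction of their falls are given below as a description and support nothing.

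The samples were livers of Gallus gallus taken before hatching, at embryonic day 13, in a stage that the labels call rapid growth, at 5 weeks of age, and in a stage called adult and aged, at 42 weeks. Each age had 3 libraries of total RNA, labelled biological replicates and prepared with an Illumina TruSeq kit. No treatment or genetic change is named at any age. The sources used here do not state strain, sex, flock, how many birds a library holds, or any batch, so none of these can be told apart from age, and p-values measure only the spread between these libraries. Livers were sampled whole as far as the labels say, and fewer cells of a type and less RNA per cell cannot be told apart in such samples.

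As background, the embryonic liver of birds is a growing organ in which hepatocytes mature while lipid from the yolk is taken up and stored. After hatching the chick turns from yolk to feed rich in carbohydrate, and the liver becomes the main site of fatty acid synthesis. In mature hens the liver also makes the precursors of yolk under estrogen. A gene that is lower at each later age is thus lower across both hatching and the passage from growth to adulthood.

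The deposited tables name genes by Ensembl identifier alone, and 0 of the 13949 identifiers matched the reference gene table. No symbol, function, position or sequence is therefore given to any member. The 13 gene lists prepared by symbol, among them markers of hepatocytes and other liver cells, were not used here, and the labelled tissue was not checked against markers. The members are described by their levels, by the shape of their falls and by their behaviour in each library, and 2 are identified.

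Members began well above the typical gene and ended below it. Their median age mean was 50.3 FPKM in the embryo, 10.5 FPKM by 5 weeks and 3.21 FPKM by 42 weeks, while over all tested genes it was 8.42, 5.79 and 5.25 FPKM. In the embryonic libraries the median over members was 52.9, 41.4 and 50.04 FPKM. In the 5-week libraries it was 9.37, 10.9 and 9.40 FPKM. In the 42-week libraries it was 1.79, 2.75 and 5.05 FPKM, so the ages did not overlap in this median and the third 42-week library was the highest of its age. A high start is partly fixed by the rule, since a gene needs at least 3 FPKM to lose 2 units of log2(FPKM + 1). A low end is favoured by it too, since it asks for a lower mean at 42 weeks than at both earlier ages. The lowest member value in any embryonic library was 8.04 FPKM, and the rule used these embryonic values too.

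**Figure D1:**
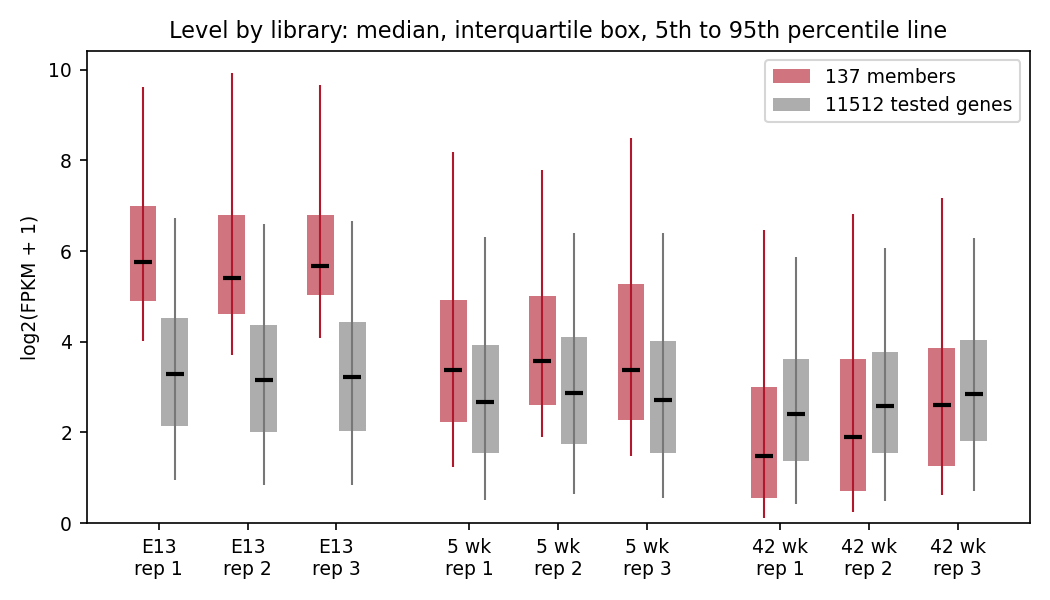
Level of the 137 members (red) and of all 11512 tested genes (grey) in each of the 9 libraries, on the log2(FPKM + 1) scale. Black marks are medians, boxes the interquartile range and lines the 5th to 95th percentiles. The members' median moves from above that of all genes at embryonic day 13 to below it in all 3 libraries at 42 weeks, with the third 42-week library the closest.

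Counted by level, 39 members reached a mean of at least 100 FPKM at embryonic day 13, namely 33 between 100 and 1000 FPKM and 6 above. Another 97 had 10 to 100 FPKM and 1 had 9.67 FPKM. At 5 weeks 15 had 100 to 1000 FPKM, 2 had more, and 68 had 1 to 10 FPKM. At 42 weeks 34 had a mean under 1 FPKM, which is 24.8% of members against 11.4% of all tested genes, and 19 were under 1 FPKM in all 3 libraries of that age. The rule favours a low level at 42 weeks, so these shares are a description. In all 9 libraries 82 members had at least 1 FPKM, and the other 55 were under it in at least 1 library. An exact 0 stood for 12 of their values at 42 weeks, 2 at 5 weeks and 0 at embryonic day 13, spread over 7 members, of which 1 was listed at 0 in all 3 libraries at 42 weeks. In the table no value lies above 0 and under 0.1 FPKM, so a 0 can stand for absence or for a level under 0.1 FPKM.

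Relative to the embryonic level, the median member kept 25.7% of its FPKM at 5 weeks (interquartile range 11.4 to 39.8%) and 7.93% at 42 weeks (2.55 to 14.6%). Of the 137 members, 81 were at or under 10% of their embryonic mean at 42 weeks and 6 at or under 1%. In 60 members every 42-week library lay under 10% of the lowest embryonic library. From 5 to 42 weeks alone the median member kept 31.7% of its FPKM, with 60.6% the most kept by any. The most kept exceeds 50% because the rule averages log2 values, and in 135 members the 42-week mean FPKM was at most 50% of the 5-week mean.

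On the log2(FPKM + 1) scale the falls were unequal between steps. The median log2 difference was -1.88 at the first step (down to -4.63) and -1.33 at the second (down to -3.53), against -0.46 and -0.17 over all tested genes. The first step was the larger in 96 members and the second in 41. How unequal the steps are depends on the scale. With an offset of 0.1 FPKM in place of 1 the member medians were -1.99 and -1.76. With libraries shifted to the same median they were -1.4 and -1.2. Which step was larger was counted on the deposited scale alone. Over members the first step held a median of 58.6% of the total log2 fall, with an interquartile range of 48.2 to 68.2%.

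**Figure D2:**
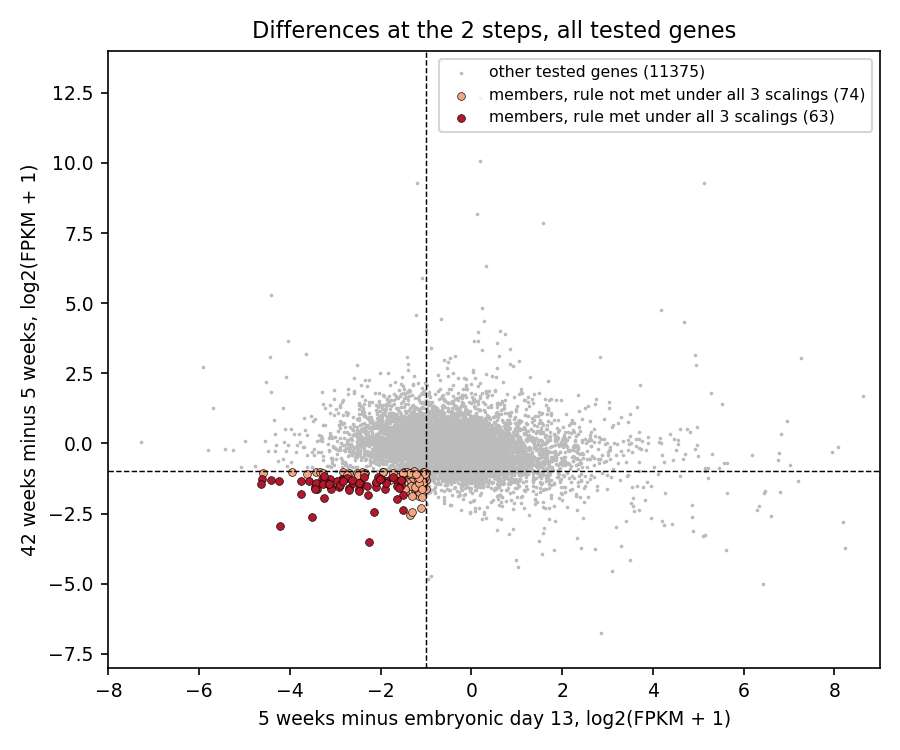
Log2(FPKM + 1) difference of each tested gene at the first step (x axis) and the second (y axis). Dashed lines mark -1, and points with a dark outline are the 137 members, in dark red the 63 that meet the rule under all 3 scalings and in light red the other 74. Members spread far along the first step but mostly lie within -2 on the second.

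Members with an early-weighted fall, over 60% of it at the first step, numbered 61. Their median level was 45.02 FPKM in the embryo, then 4.29 and 1.15 FPKM at the later ages. These genes had lost most of their RNA by 5 weeks, and their second step ranged from -1.93 to -1.01 on the log2 scale. Members with an even fall, 40 to 60% at the first step, numbered 67, with medians of 50.3, 16.7 and 6.91 FPKM at the 3 ages. Only 9 members had a late-weighted fall, with under 40% at the first step, and medians of 50.7, 23.8 and 5.81 FPKM. Their second step ranged from -3.53 to -1.61, so this small group includes the largest second step of any member. The member with that step had 6.995, 2.175 and 48.6 FPKM in the 42-week libraries, which thus differed widely. These limits of 40 and 60% were set after the values were seen. The shares are on the log2(FPKM + 1) scale, where a fall that ends near or under 1 FPKM counts for less than in plain FPKM. The 3 groups thus depend on level as well as on timing.

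Large falls at both steps were rare among members. A first step of at least 2 log2 units was found in 65 members and a second step of that size in 8, and 4 had both. A total of at least 4 log2 units was reached by 44 members, with medians of 59.1, 4.62 and 1.16 FPKM at the 3 ages. On this scale a gene that is already near 1 FPKM at 5 weeks has little left to lose. Among the 2815 genes lower by at least 1 at the first step, 614 (21.8%) had a 5-week mean under 1 on the log2 scale and could not meet the second condition. Members were 4.87% of those 2815 genes, 6.22% of the 2201 with room for a second fall, and 16.1% of the 852 genes lower by at least 1 at the second step. Of all tested genes, 7% were called lower at the second step and 24.3% at the first, by a fall of at least 1 and the adjusted p. The shares of members use the fall alone, without the adjusted p, and the 6.22% leaves out genes without room to fall. They come from the values that the rule used, so they are a description and were not compared with those of all genes. Both steps are measured against the same 5-week libraries.

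The most abundant member at embryonic day 13 was ENSGALG00000004129. It had 12100, 10330 and 8878 FPKM in the embryonic libraries. At 5 weeks it had 2336, 3005 and 3851 FPKM, and at 42 weeks 1143, 1271 and 1192 FPKM. The 3 ages did not overlap, and the third 42-week library lay between the other two. The means were 10440 ± 1610, 3064 ± 759 and 1202 ± 64.9 FPKM (SD, n = 3 each), so that 29.4% of the embryonic level remained at 5 weeks and 11.5% at 42 weeks. The log2 differences were -1.79 ± 0.27 and -1.32 ± 0.27 (SE). After quantile normalization the second was -0.96, just short of the rule. By mean FPKM the gene ranked 4 among tested genes in the embryo, then 16 and 34 at the later ages, so it was still among the abundant transcripts of the adult liver.

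The member with the largest fall over the whole interval, among those with at least 10 FPKM at embryonic day 13, was ENSGALG00000004230. Its embryonic libraries had 912.6, 1143 and 1334 FPKM. The 5-week libraries had 71.2, 31.3 and 93.7 FPKM, and the 42-week libraries 1.48, 19.3 and 8.53 FPKM. No library of a later age reached any of an earlier one, but the 42-week values differed widely among themselves. Its rank went from 51 at embryonic day 13 to 715 and then 3769. At 42 weeks 0.866% of its embryonic mean remained. The second step of -2.95 ± 0.63 (SE) became -2.12 when the first 42-week library was left out and -3.64 when the second was.

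**Figure D3:**
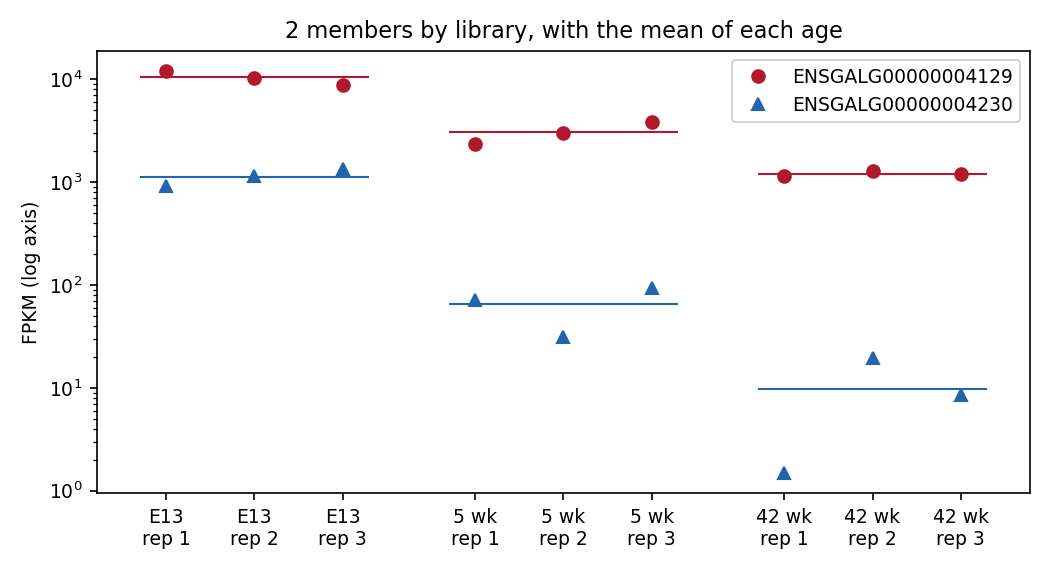
FPKM of ENSGALG00000004129 (circles) and ENSGALG00000004230 (triangles) in each library, on a log axis, with lines at the mean of each age. Both step down at each age, the first with 42-week values of 1143 to 1271 FPKM and the second with values from 1.48 to 19.3 FPKM.

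The 10 members with the most RNA in the embryo had means of 644 to 10436 FPKM there, of 65.4 to 3064 FPKM in 5-week birds and of 9.78 to 1202 FPKM in 42-week birds. Their total log2 falls ran from -2.08 to -7.16. The 10 members with the largest falls had 50.6 to 1130 FPKM in the embryo, 3.94 to 124 FPKM by 5 weeks and 0 to 19.3 FPKM by 42 weeks, with totals of -5.19 to -7.16. ENSGALG00000004230 was the 1 gene in both groups of 10. Among the 97 members that began at 10 to 100 FPKM the median first step was -2.11 and the median second step -1.32. Among the 33 that began at 100 to 1000 FPKM these medians were -1.35 and -1.39, and among the 6 above 1000 FPKM they were -1.75 and -1.28. Single members departed from these medians, since 9 of the 33 had over 60% of their fall at the first step and 4 had under 40%. These steps are on the log2(FPKM + 1) scale too, so a second step that ends near 1 FPKM is made smaller by the offset.

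The members held a shrinking part of the mRNA signal. Their share of the summed FPKM of all listed genes was 6.74, 6.27 and 6.11% in the embryonic libraries. At 5 weeks it was 1.72, 1.86 and 2.24%, and at 42 weeks 0.903, 0.918 and 1.01%. The mean share went from 6.37% ± 0.32 in the embryo to 1.94% ± 0.27 in 5-week and 0.944% ± 0.059 in 42-week birds (SD, n = 3 each), in the direction that the choice of members fixes. ENSGALG00000004129 made up much of it, with 30.0% ± 2.9, 29.7% ± 3.8 and 29.6% ± 4.0 of the members' own sum at the 3 ages. The 5 members most abundant in the embryo, kept the same at each age, held 55.6% ± 2.5, 57.9% ± 4.0 and 61.9% ± 5.8 of it. Without ENSGALG00000004129 the members' share was 4.45% ± 0.096, 1.36% ± 0.14 and 0.666% ± 0.080 (SD, n = 3 each).

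**Figure D4:**
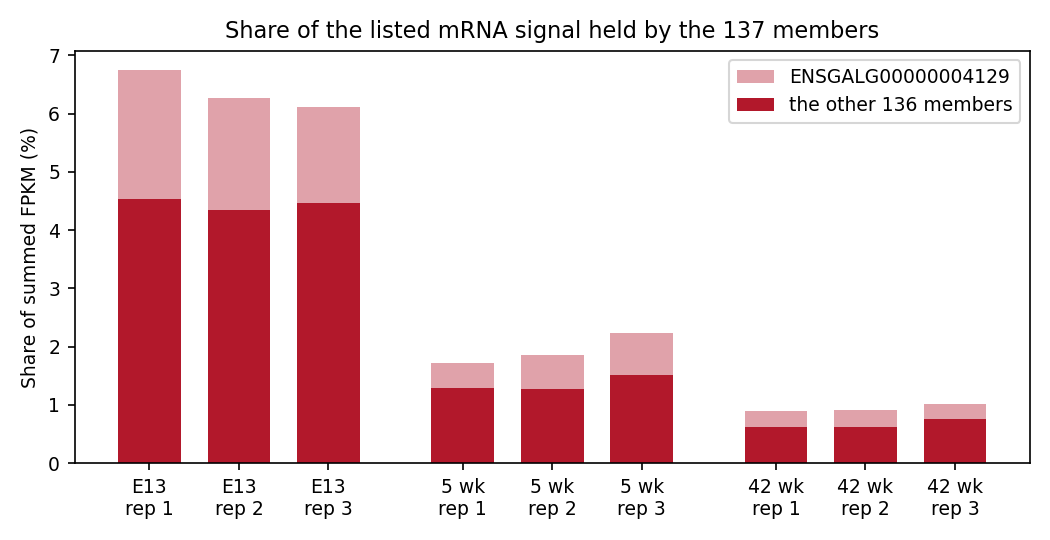
Share of the summed FPKM of all listed genes held by the 137 members in each library, in percent, with ENSGALG00000004129 in light red on top of the other 136 members in dark red. The embryonic libraries lie between 6.11 and 6.74%, the 5-week libraries between 1.72 and 2.24%, and the 42-week libraries between 0.903 and 1.01%.

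All differences were also fitted across the 11512 tested genes with limma, and a gene was called lower at a Benjamini-Hochberg adjusted p under 0.05 and a difference of at least 1 on the log2 scale. At the first step 136 of 137 members were called lower, where 24.3% of all tested genes were. At the second step it was 131, where 7% of all genes were called, and at both steps it was 130, where 1.13% were. Between 42 weeks and embryonic day 13 all 137 members were called, against 30.9% of all genes. The rule used these same differences, so the counts support nothing further. Whether a member was called depended on its fall relative to its spread between libraries. The 1 member not called at the first step had an adjusted p of 0.22 by limma. Its embryonic and 5-week libraries did not overlap, and its 42-week libraries had 8.32, 15.5 and 138 FPKM. The 6 not called at the second had adjusted p-values of 0.0696 to 0.259 by limma.

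Libraries of different ages were fully separated in most members, which the choice by age means favours, so these counts are a description. At the first step 135 members had no overlap, where 55.2% of all tested genes did so in this direction. At the second step it was 127 (27.9% of all genes), and at both steps 125 (12.9%). Of the 10 members that overlapped at the second step, 2 did so because a 5-week library was listed at 0. In those 2 every 42-week library counted as overlapping, and the third was itself at 0. In the rest, only the third 42-week library reached the range of the 5-week libraries.

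Spread between libraries of an age was not itself part of the rule. It moves the age means that the rule used, so it is not independent of the choice of members. The median SD of a member on the log2 scale was 0.23 in the embryo, then 0.29 and 0.44 at the later ages, against 0.15, 0.19 and 0.29 over all tested genes. For the 2678 genes that met the rule at the first step alone it was 0.17, 0.19 and 0.27, and for the 715 that met it at the second alone 0.17, 0.22 and 0.35. Members thus had the highest median of these groups at each age. The groups differ in level and in how they were chosen, and the part of either in these values was not tested.

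The third 42-week library stood apart in the members and, by less, in other genes. The members' median deviation from the mean of that age was 0.41 log2 units there, -0.29 in the first and -0.12 in the second, while over all tested genes it was 0.23, -0.19 and -0.04. The 715 genes lower at the second step alone deviated in the same direction, by 0.31 in the third library. The third library was the highest of its age in 120 members (87.6%), against 74.4% of those 715 genes and 71.4% of all tested genes. It lay at least 1 log2 unit above the mean of the other two in 25 members (18.2%, against 7.87% of all genes) and at least that far below it in 2. With the medians of the libraries made equal, members deviated by 0.17 in the third library, the 715 genes by 0.07 and all tested genes by -0.01, and the third was highest in 56.9, 49.0 and 36.9%. After quantile normalization the deviations were 0.21 for members, 0.08 for the 715 genes and 0.00 for all genes. The differences between these groups were not tested. The rule was met by 214 genes without this library, 135 of them members, and by 106 genes without the first 42-week library, 103 of them members. Rescaling the deviations in these ways was chosen after the data were seen.

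**Figure D5:**
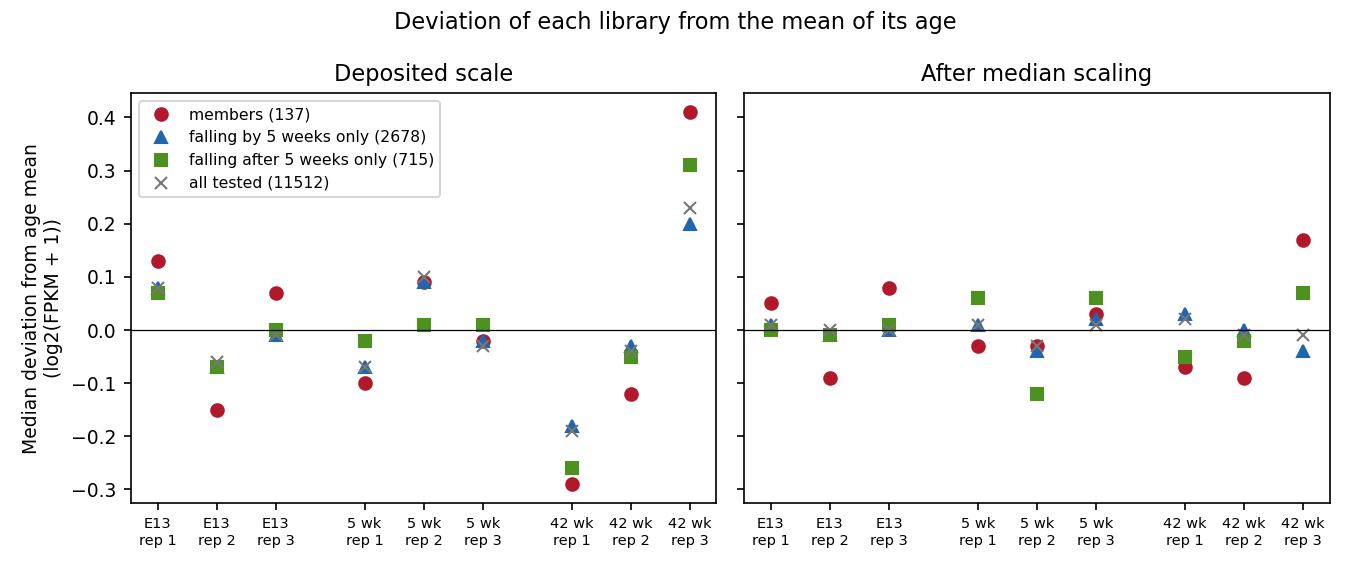
Median deviation of each library from the mean of its age, in log2(FPKM + 1) units, on the deposited scale (left) and with library medians made equal (right), for the members, for genes lower at 1 step alone, and for all tested genes. On the left the members lie at 0.41 in the third 42-week library and all genes at 0.23, and on the right at 0.17 and -0.01.

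How many genes meet the rule depends on scaling, because the median log2 difference of all genes was itself -0.46 and -0.17. With libraries shifted to the same median these became 0.014 and -0.035, and 68 genes, all of them members, met the rule. With quantile normalization they became -0.038 and -0.042, and 82 genes met it, 80 of them members. Every member remained lower at both steps under both scalings, the smallest differences being -0.529 and -0.867 after median scaling and -0.556 and -0.494 after quantile normalization. In all 63 members (46.0%) met the rule under all 3 scalings. These had medians of 45.0, 5.33 and 1.31 FPKM at the 3 ages, and the other 74 had 52.3, 16.5 and 6.74 FPKM.

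The early-weighted members made up most of those 63. Of the 61 early-weighted members 43 met the rule under all 3 scalings, of the 67 even ones 18 did, and of the 9 late-weighted ones 2 did. By embryonic level it was 52 of the 97 members at 10 to 100 FPKM, 10 of the 33 at 100 to 1000 FPKM, and 1 of the 6 above. That 1 was ENSGALG00000004230. Shifting libraries to the same median changes a step by the same amount in every gene. Under that scaling, members whose fall is small at either step lose the rule first by construction. Quantile normalization changes genes by different amounts. With it ENSGALG00000004129 went from -1.79 to -2.34 at the first step and from -1.32 to -0.96 at the second.

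Many members lie close to the threshold. The smaller of the 2 falls was under 1.1 in 42 members, and 71 genes just outside had a smaller fall of 0.9 to 1. The 3 nearest inside had smaller falls of 1.000, 1.003 and 1.004, and the 3 nearest outside 0.9998, 0.9972 and 0.9969. The last of these outside had 14.8, 6.69 and 2.82 FPKM at the 3 ages, against 17.4, 7.91 and 4.30 FPKM for the third inside. Steps of at least 1.5 on the log2 scale were found at both steps in 22 members. Leaving out each library in turn, 74 members (54.0%) met the rule every time, and 53 did so and also met it under all 3 scalings.

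Among long non-coding RNAs, 2213 of 4127 listed had at least 0.5 FPKM in at least 3 libraries, and 5 of these (0.23%) met the same rule. Their means were 5.41 to 117 FPKM in the embryo, 2.34 to 17.8 FPKM by 5 weeks and 0.506 to 4.62 FPKM by 42 weeks. The filter differs between the tables, so the share was not compared with that of the protein-coding genes.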

How the data were processed

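The deposited data are log2 values of FPKM in 9 libraries, in a table of protein-coding genes and a table of long non-coding RNAs, made by the authors. They were read as log2(FPKM + 1), an offset that fits the smallest mRNA value above 0 (0.1 FPKM) and was assumed for the other table. The tools were DESeq2, Cufflinks 2.2.1, StringTie 1.3.3 and HISAT, in roles not stated, per the submitters' processing notes. The genome build, annotation and read depth were not given in sources used here, so counting error is unknown and error was taken from the spread between libraries. All columns belong to these libraries, and 0 were left aside.

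Genes entered when 3 or more libraries had 1 FPKM or more. The 3 age means were fitted over the 9 libraries by limma 3.58.1 in R 4.3.3, with a mean-variance trend, two-sided tests and Benjamini-Hochberg adjustment over all genes of a comparison. Summaries used Python 3.11.15. In simulated data with 11512 genes, 93 of 100 genes lowered by 1.5 log2 units per step and 99 of 100 lowered by 3 were called at both steps, with 0 calls among 11312 unchanged genes. The simulation was of normal values with independent genes and had no floor at 0. It gave each gene the same spread at every age, while the median SD over all tested genes was 0.15, 0.19 and 0.29 at the 3 ages. A call needed a fall of at least 1 at both steps, so calls among unchanged genes were unlikely from the outset. Genes of low FPKM have less room to fall, so these rates do not carry over to them. Unchanged genes had the same mean at each age. The simulation thus held no general shift like the median log2 differences of -0.46 and -0.168 over all tested genes. The members and lists were chosen with earlier results of these data known. The planned rule for named genes took members with a symbol; since no identifier matched, its fallback named the most abundant member at embryonic day 13 and the one with the largest fall.
Alternatives were other scalings, filters, offsets and step sizes, other variance models, a replicate block and leaving out each library. The promoter motifs and gene lists planned by symbol were not analysed here.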

Additional observations from a re-analysis of the deposited data

How the results depend on the processing

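The number of genes meeting the rule, 137 as deposited, was 68 after median scaling, 82 after quantile normalization and 369 with an offset of 0.1 FPKM, and 1052 or 22 with steps of at least 0.5 or 1.5. Leaving out 1 library gave 106 to 214. Of the members, 68 met the rule after median scaling, 80 after quantile normalization and 103 to 135 without 1 library. With members chosen anew, their share of the summed FPKM at embryonic day 13, 5 weeks and 42 weeks was 3.74, 0.894 and 0.411% after median scaling and 2.27, 0.727 and 0.116% after quantile normalization. With the smaller offset it was 6.94% at embryonic day 13 and 1.01% at 42 weeks. Without 1 library it ranged from 5.43 to 8.20%, 1.64 to 2.86% and 0.766 to 1.14%. Both scalings raise the differences of most genes, which lowers the numbers of genes by construction. The shares depend also on which members drop out. ENSGALG00000004129 dropped out after quantile normalization, with a second step of -0.96, and its part in the lower shares was not tested. Step sizes change the number of genes by definition. The smaller offset enlarges log2 falls, most at low FPKM, and the members' median second step went from -1.33 to -1.76 with it. For leaving out libraries the cause was not tested.

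Of all genes, 1269 were called lower at the first step after median scaling, 1380 after quantile normalization and 5396 by the adjusted p alone, against 2802. At the second step 806 became 572 after median scaling and 541 after quantile normalization. It became 1271 with the smaller offset and 2521 by the adjusted p alone, and 604 to 1305 without 1 library. At both steps 130 became 64, 78, 274 and 865 under median scaling, quantile normalization, the smaller offset and the adjusted p alone, and 98 to 212 without 1 library, 212 being without the third 42-week library. Among members, 83 were called at the first step after median scaling, and 64 and 76 at both steps after median scaling and quantile normalization. Without 1 library 124 to 137 members were called at the first step, 98 to 135 at the second and 97 to 135 at both. The lowest for the second step and for both was without the first 42-week library.

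With the replicate number as a block, 132 genes were called lower at both steps. The numbers are shared without a stated pairing, and deviations of same-numbered libraries correlated across genes by -0.0499 to 0.145 in 9 pairs. The planned counts over gene lists were not run, as no identifier matched a symbol. Read depth is unknown, and values under 0.1 FPKM cannot be told apart.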
